A study of Mus musculus with 6 samples.

Results

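The synaptic vesicle release machinery was followed through 32 genes, which encode the proteins that fill, dock, prime, fuse and retrieve transmitter vesicles at the nerve terminal. Members were all probe sets that the platform annotation assigns to exactly 1 symbol on this gene list, and they came to 85 of the 45037 probe sets tested. For values per gene the brightest probe set was taken, by its mean across all arrays, which gave 18193 genes in all. All 32 genes were measured, 26 of them by more than 1 probe set. A further probe set that carries a member symbol together with another symbol was not used.

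The samples were cerebellum of transgenic mice carrying daDREAM (3 arrays) and cerebellum of wild-type mice (3 arrays), each array an independent biological replicate according to the study design. DREAM, the product of Kcnip3, is a calcium-binding protein that represses transcription from a DNA element called DRE, and daDREAM is a mutant form that keeps repressing when calcium rises. The promoter that drives the transgene, the founder lines, and the strain, age and sex of the mice were not stated in the labels. The comparison asks which cerebellar mRNAs differ in the presence of daDREAM. Expression was measured on Affymetrix Mouse Genome 430 2.0 arrays and is given as log2 RMA values, in which 1 unit is a doubling of signal. A difference is daDREAM minus wild type throughout.

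Vesicles fuse when the vesicle SNARE protein VAMP zips together with syntaxin and SNAP-25 of the plasma membrane. Synaptotagmins sense the calcium that triggers fusion, complexins hold and release the assembled complex, and Munc13, RIM, ELKS, bassoon and piccolo organise the active zone where vesicles are primed. In the cerebellum the granule cells release glutamate from parallel fibres with VGLUT1, while climbing fibres, whose cell bodies lie outside the cerebellum, use VGLUT2. The mRNA of incoming mossy and climbing fibres is therefore mostly absent from dissected cerebellum.

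Since DREAM represses transcription from the DRE, the promoter windows of the members were searched for the DRE core and for further elements. RefSeq promoter windows (build GRCm38.p6, 250 bases before to 50 bases after the annotated start) were matched by symbol to 26 members, in 33 windows. The remaining members were Doc2b, Rims2, Snap25, Syn3, Syt7 and Vamp2. The windows below are shown because they are the member windows with a cAMP response element or an RE1 part, with every motif match on either strand in capitals: the DRE core GTCA, the longer DRE GTCAAGG, the cAMP response element TGACGTCA, and TTCAGCACC, the left part of the RE1 element bound by the neuronal silencer REST. GTCA is part of the longer DRE and of TGACGTCA, so these matches overlap. The Napa window is chr7:16098330-16098629 on the plus strand, the Syn1 window is chrX:20920869-20921168 on the minus strand and the Unc13a window is chr8:71671708-71672007 on the minus strand, each written 5′ to 3′ along its gene.
Napa: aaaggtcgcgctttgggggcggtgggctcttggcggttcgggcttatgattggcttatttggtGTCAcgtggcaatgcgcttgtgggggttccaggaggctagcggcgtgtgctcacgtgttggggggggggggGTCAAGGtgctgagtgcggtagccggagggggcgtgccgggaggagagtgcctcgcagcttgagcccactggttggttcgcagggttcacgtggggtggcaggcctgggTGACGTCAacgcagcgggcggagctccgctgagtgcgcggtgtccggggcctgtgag
Syn1: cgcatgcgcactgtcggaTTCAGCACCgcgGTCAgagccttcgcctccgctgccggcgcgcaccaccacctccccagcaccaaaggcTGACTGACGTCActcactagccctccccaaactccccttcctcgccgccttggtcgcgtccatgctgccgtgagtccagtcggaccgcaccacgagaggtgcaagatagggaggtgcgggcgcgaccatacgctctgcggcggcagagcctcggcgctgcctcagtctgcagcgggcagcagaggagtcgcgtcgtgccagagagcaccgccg
Unc13a: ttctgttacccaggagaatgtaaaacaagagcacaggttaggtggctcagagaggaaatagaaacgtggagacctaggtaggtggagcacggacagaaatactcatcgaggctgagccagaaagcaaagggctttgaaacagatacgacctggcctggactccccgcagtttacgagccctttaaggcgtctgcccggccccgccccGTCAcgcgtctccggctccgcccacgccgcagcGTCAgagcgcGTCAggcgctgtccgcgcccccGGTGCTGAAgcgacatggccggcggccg
In Napa the longer DRE begins at position -116 and the cAMP response element at -7, counted from the annotated start. The Syn1 window holds the RE1 part at -232 and the cAMP response element at -159, and the Unc13a window holds the RE1 part on the opposite strand at 23.

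GTCA was present in 26 of 33 member windows (78.8%), against 85.2% of all 32851 promoter windows, and its median count was 2 per window in both. The longer GTCAAGG was present in 3 member windows (9.09%), those of Napa, Syt11 and Syt2, against 3.18% of all windows. TGACGTCA was present in 2 (6.06%), Napa and Syn1, against 1.79% of all windows, and TTCAGCACC in 2 (6.06%), Syn1 and Unc13a, against 0.371%. Member windows were richer in G and C, at a median of 62.0%, against 52.7% over all windows. These letters describe the windows and do not show binding. The median difference in expression was -0.04 over the 21 members with GTCA and 0.04 over the 5 members without it. Both medians are smaller in size than the median standard error of a member, 0.14, and they were not tested against each other. Syt11, Syt2 and Napa, with the longer DRE, differed by -0.09, 0.00 and 0.10.

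No release gene passed the adjusted test between daDREAM and wild-type cerebellum, which does not show that levels were equal. None of the 32 passed limma after Benjamini-Hochberg adjustment over all probe sets at a threshold of 0.05, and the adjusted p was 0.998 for 31 of them and 1 for Syt2. The background share of calls was 0%, since 0 of 45037 probe sets passed. None of the 32 members (0 of 32) had an unadjusted p below 0.05, which 1.42% of all genes had. Of the 32, 14 were higher in daDREAM, 17 were lower and Syt2 did not differ to 2 decimals, while 51.2% of all genes were higher. The median difference was -0.02 over the members and 0.0067 over all genes, and the median size of a difference was 0.058 for the members and 0.10 for all genes. A difference of at least 0.2 in size was found in 3 members, Sv2c, Syn2 and Slc17a6, all lower, against 19.2% of all genes in either direction. These backgrounds were not matched for signal level. A mean below 5 was found for 1 of the 32 members, but for 6459 of all 18193 genes.

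**Figure D1:**
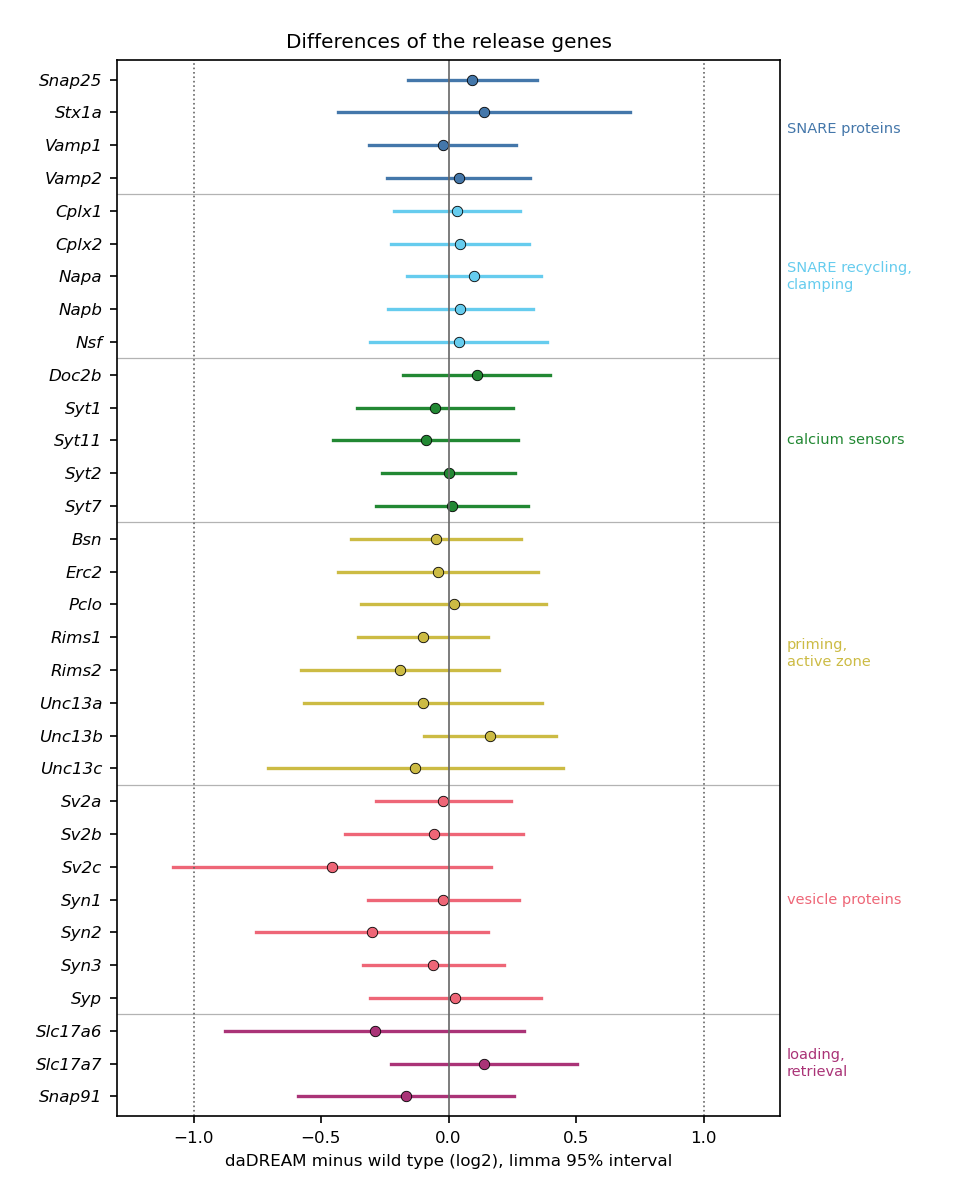
Differences of the 32 release genes between daDREAM and wild-type cerebellum (log2, points) with the 95% interval of limma (lines), grouped by role, from 3 arrays per genotype. Every interval includes 0, and only that of Sv2c reaches beyond 1 log2 unit (dotted lines), to -1.08.

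The 95% intervals give the precision of this fit for the brightest probe set of each gene. They lay within 0.5 log2 units either way for 23 of the 32 members, against 60.2% of all genes, and within 1 unit, a 2-fold change, for 31, against 98.5% of all genes. The exception was Sv2c, whose interval ran from -1.08 to 0.17. The median standard error was 0.14 for the members and 0.15 for all genes. Here too the background was not matched for signal level. In bulk tissue a change in the number of cells of a type cannot be told apart from a change in mRNA per cell.

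At their brightest probe sets the mRNAs of the SNARE proteins, which form the fusion complex itself, did not differ beyond the spread between arrays. A dimmer Snap25 probe set, described below, did separate the genotypes. Snap25, encoding SNAP-25, stood at 12.69, 12.61 and 12.62 in the daDREAM arrays, against 12.50, 12.53 and 12.61 in the wild-type arrays. The lowest daDREAM value equalled the highest wild-type value, and the difference was 0.093 (interval -0.16 to 0.35). Vamp2, the main vesicle SNARE of forebrain synapses, stood at 11.00, 11.02 and 10.76 in daDREAM and at 10.91, 10.91 and 10.84 in wild type. Its paralogue Vamp1, prominent in brainstem and spinal cord, stood at 10.22, 10.12 and 10.02 in daDREAM and at 10.25, 10.18 and 10.00 in wild type. The genotypes overlapped at both VAMP genes, and the differences were 0.040 for Vamp2 (interval -0.24 to 0.32) and -0.023 for Vamp1 (interval -0.31 to 0.26). Stx1a, encoding syntaxin 1A, was the least precise of the SNARE genes, at 5.21, 5.70 and 6.23 in daDREAM and 5.44, 5.45 and 5.83 in wild type. Its daDREAM values enclosed all 3 wild-type values, and its difference was 0.14 (interval -0.43 to 0.71).

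The genes that regulate and recycle SNARE complexes had small differences, all 5 positive and none past the test. Cplx1, the complexin of many fast hindbrain synapses, stood at 11.77, 11.76 and 11.78 in daDREAM and at 11.80, 11.71 and 11.70 in wild type. Cplx2, its paralogue, stood at 11.43, 11.29 and 11.20 in daDREAM and at 11.28, 11.30 and 11.20 in wild type. The genotypes overlapped at both complexins, whose differences were 0.033 (interval -0.22 to 0.28) and 0.047 (interval -0.22 to 0.32). Nsf, the ATPase that pulls spent SNARE complexes apart, differed by 0.040, and its adaptors Napa (alpha-SNAP) and Napb (beta-SNAP) by 0.10 and 0.047. Without daDREAM replicate 1 the count of higher genes in this group was 3 of 5.

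The calcium sensors had a median difference of 0.00. Syt1, encoding synaptotagmin 1, a fast trigger of release, stood at 11.59, 11.50 and 11.27 in daDREAM and at 11.46, 11.42 and 11.64 in wild type. Syt2, which takes that part at many fast synapses of the hindbrain, stood at 9.33, 9.26 and 9.13 in daDREAM and at 9.22, 9.26 and 9.24 in wild type. The genotypes overlapped at both genes, with differences of -0.053 for Syt1 (interval -0.36 to 0.25) and 0.00 for Syt2 (interval -0.26 to 0.26). Syt7, a slower sensor with high calcium affinity, differed by 0.013, Syt11, a family member that does not bind calcium in the manner of synaptotagmin 1, by -0.09, and Doc2b, a sensor tied to spontaneous release, by 0.11. All 5 members of this group had intervals within 0.5 log2 units either way.

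Among the 8 priming and active zone genes 6 were lower and 2 higher, with a median difference of -0.075. Unc13b, encoding Munc13-2, was the member of the 32 whose genotypes did not overlap, against 5.59% of all genes in either direction and 3.55% higher in daDREAM. It stood at 5.91, 6.01 and 6.06 in daDREAM and at 5.76, 5.86 and 5.87 in wild type, a difference of 0.16 (interval -0.096 to 0.42) (limma adjusted p = 0.998). Every daDREAM array was above every wild-type array, by a margin of hundredths between the nearest values. Unc13a, encoding Munc13-1, the principal priming factor of the forebrain, stood at 8.19, 7.91 and 7.58 in daDREAM and at 8.24, 8.08 and 7.66 in wild type. Unc13c, encoding Munc13-3, which is abundant in cerebellar granule cells, stood at 9.97, 9.07 and 8.94 in daDREAM and at 9.41, 9.54 and 9.42 in wild type. The daDREAM arrays of Unc13c were split, replicate 1 above and replicates 2 and 3 below all wild-type arrays. The differences were -0.10 for Unc13a (interval -0.57 to 0.37) and -0.13 for Unc13c (interval -0.71 to 0.45).

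Rims1 and Rims2, the RIM scaffolds that hold calcium channels at release sites, differed by -0.10 (interval -0.36 to 0.16) and -0.19 (interval -0.58 to 0.20). The giant scaffolds Bsn (bassoon) and Pclo (piccolo) differed by -0.05 and 0.02, and Erc2, an ELKS family protein, by -0.04. Without daDREAM replicate 3, 5 of the 8 priming and active zone genes were higher and their median difference was 0.06, and without daDREAM replicate 1 there was 1 higher and the median was -0.16.

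The vesicle phosphoproteins and membrane proteins had 6 of 7 genes lower, with a median difference of -0.057. Syn2, encoding synapsin 2, which tethers vesicles of the reserve pool, stood at 9.12, 8.67 and 8.66 in daDREAM and at 9.21, 9.38 and 8.76 in wild type. Its difference was -0.30 (interval -0.76 to 0.16), and daDREAM replicate 1 lay inside the wild-type range while replicates 2 and 3 lay below it. Syn1, encoding synapsin 1, stood at 10.52, 10.72 and 10.42 in daDREAM and at 10.65, 10.61 and 10.46 in wild type. Syp, encoding synaptophysin, a widely used marker of vesicles, stood at 10.46, 10.35 and 10.38 in daDREAM and at 10.49, 10.53 and 10.09 in wild type. Neither Syn1 nor Syp separated the genotypes, and their differences were -0.02 (interval -0.32 to 0.28) and 0.027 (interval -0.31 to 0.36). Syn3, the third synapsin, differed by -0.06.

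The SV2 glycoproteins of the vesicle membrane gave differences of -0.02 for Sv2a, -0.057 for Sv2b and -0.46 for Sv2c. Sv2c stood at 3.52, 3.62 and 4.38 in daDREAM and at 4.49, 4.56 and 3.84 in wild type. The genotypes overlapped, and the probe set lay under the median of all probe sets on every array. It was the only representative probe set of the 32 with a mean below 5. Without daDREAM replicate 3 the vesicle group had 4 of 7 genes higher.

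The vesicular glutamate transporters load glutamate into vesicles. Slc17a7, encoding VGLUT1, stood at 10.44, 10.49 and 10.30 in daDREAM and at 10.28, 10.54 and 9.99 in wild type. Slc17a6, encoding VGLUT2, stood at 7.01, 6.44 and 5.91 in daDREAM and at 6.87, 6.80 and 6.56 in wild type. The daDREAM arrays of Slc17a6 included both the highest and the lowest value, and the differences were 0.14 for Slc17a7 (interval -0.22 to 0.50) and -0.29 for Slc17a6 (interval -0.88 to 0.30). The dimmer Slc17a6 probe set 1418610_at went the other way, at 0.24 with overlap. Snap91, encoding AP180, an adaptor of clathrin in vesicle retrieval, differed by -0.17 (interval -0.59 to 0.26).

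**Figure D2:**
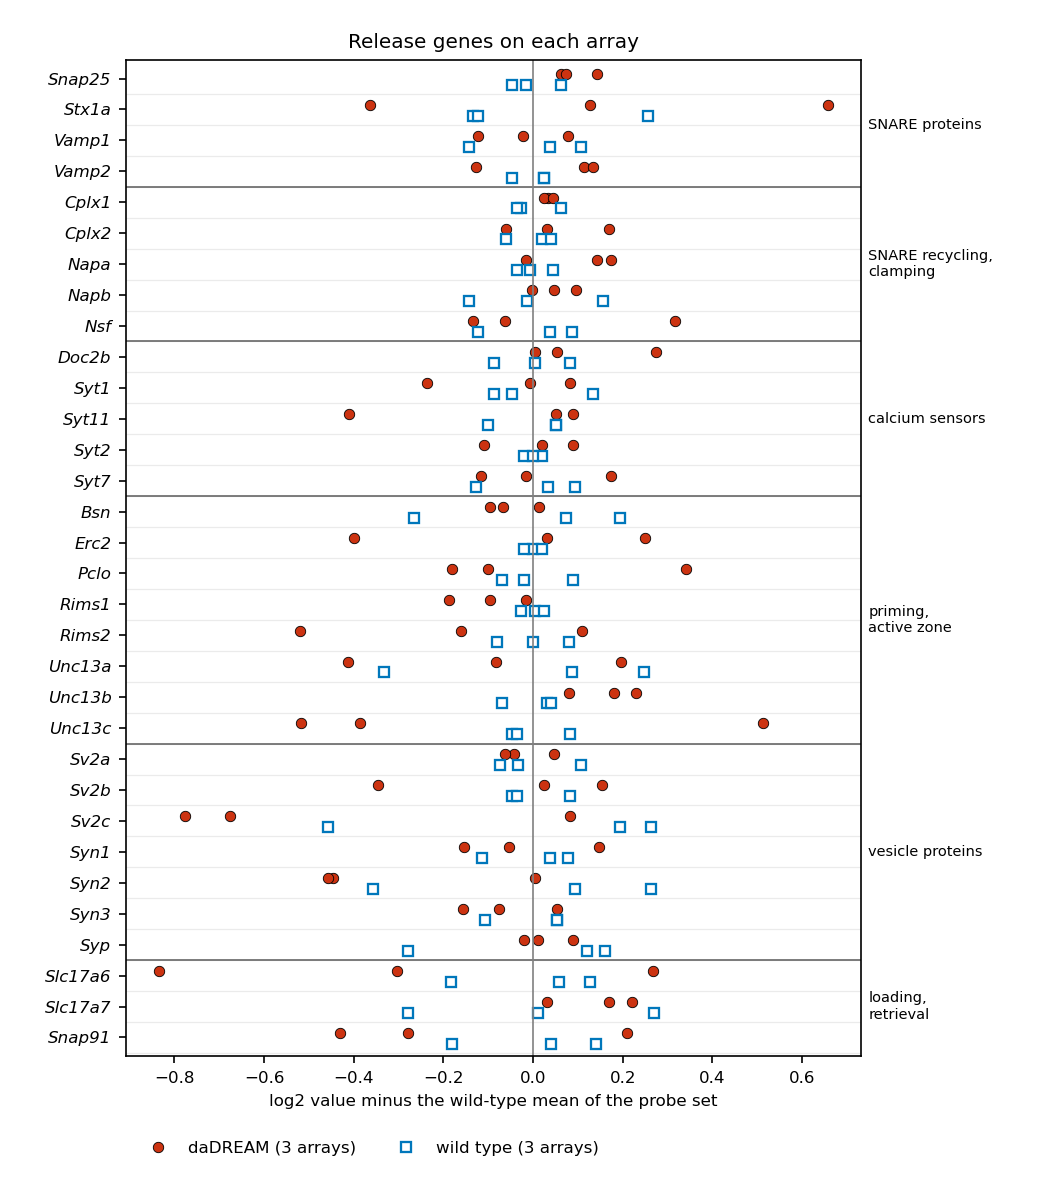
Values of the 32 release genes on each array (log2, minus the wild-type mean of the probe set), with daDREAM arrays as filled circles and wild-type arrays as open squares, 3 of each. Unc13b is the gene whose genotypes do not overlap, and Slc17a6, Unc13c, Sv2c and Stx1a have the widest spread among daDREAM arrays.

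Paralogue balance was compared as a ratio within each array, which removes any factor common to both probe sets of a pair. These 6 pairs were chosen after the values had been seen. The largest difference was that of Slc17a6 over Slc17a7, a log2 ratio of -3.43, -4.05 and -4.39 in daDREAM and -3.41, -3.74 and -3.43 in wild type. The ratio was lower in daDREAM by a mean of -0.43 (-0.69 to -0.21 when 1 array was left out), with overlapping arrays (2-sided exact permutation p = 0.3, adjusted over 6 pairs p = 0.8). Syn2 over Syn1 differed by -0.28 (exact permutation p = 0.3), Vamp1 over Vamp2 by -0.063 (exact permutation p = 0.4) and Syt2 over Syt1 by 0.053 (exact permutation p = 0.7). Cplx1 over Cplx2 differed by -0.013 and Unc13c over Unc13a by -0.03 (exact permutation p = 0.9 each). With 3 arrays against 3 the smallest p this test allows is 0.1.

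Several members had other probe sets that differed more than the brightest one. Of all 85 member probe sets 46 were higher (background 51.8%), 38 were lower and 0 passed the adjusted limma test. In 14 genes the probe sets had both signs. At 6 probe sets, all higher in daDREAM, the arrays of the genotypes were fully separated, against 6.01% of all probe sets in either direction, made up of 3.75% of all probe sets that did not overlap and were higher and 2.26% that did not overlap and were lower. An unadjusted p below 0.05 was found for 2 of the 85, and for 1.81% of all probe sets.

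The 2 were probe sets of Snap25 and Nsf. The dimmer Snap25 probe set 1447763_at stood at 7.46, 7.81 and 7.64 in daDREAM and at 7.01, 6.77 and 7.42 in wild type. All daDREAM values were above all wild-type values, and its difference was 0.57 (interval 0.15 to 0.99, unadjusted p = 0.0144, limma adjusted p = 0.998). The brightest Snap25 probe set, 1416828_at, differed by 0.093, so the gene's probe sets disagreed in size. The mean of the Snap25 probe sets differed by 0.33 (limma unadjusted p = 0.0241, limma adjusted p = 0.998). In that fit 1.85% of all genes had an unadjusted p under 0.05. For Nsf the dim probe set 1430409_at stood at 3.68, 3.75 and 3.98 in daDREAM and at 3.46, 3.45 and 3.55 in wild type, without overlap, a difference of 0.32 (limma adjusted p = 0.998). The other Nsf probe sets 1422456_at, 1422455_s_at and 1457205_at differed by 0.04, 0.02 and -0.14.

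Of the 53 dimmer probe sets 9 were higher and 5 lower by at least 0.2. Of all genes, by the brightest probe set, 19.2% differed by that size in either direction. That share is not a like background, since the 53 are not the brightest probe sets and some had means below 5. The higher ones included Rims2 1443215_at at 0.37 and Vamp2 1420833_at at 0.31, both with overlap. Doc2b 1420666_at at 0.28 and Slc17a6 1418610_at at 0.24 were also higher, with overlap. The others that were higher belonged to Snap25, Nsf and the complexins. The lower ones were Syt7 1441927_at at -0.33, Sv2b 1435687_at at -0.27, Pclo 1455373_at at -0.25 and Syn2 1460230_at and 1458105_at at -0.22 and -0.21, all with overlap. The largest complexin difference was that of Cplx2 1421477_at, at 0.44 with overlap. Cplx2 probe set 1436383_at stood at 10.69, 10.90 and 10.68 in daDREAM and at 10.51, 10.61 and 10.50 in wild type, a difference of 0.22 without overlap (interval -0.058 to 0.49). Cplx1 probe set 1417747_at stood at 10.19, 10.24 and 10.49 in daDREAM and at 10.14, 10.15 and 9.82 in wild type, a difference of 0.27 without overlap (interval -0.065 to 0.60). All 3 probe sets of each complexin gene had a positive difference. Bsn probe set 1450467_at stood at 7.64, 7.72 and 7.82 in daDREAM and at 7.63, 7.58 and 7.38 in wild type, a difference of 0.197 without overlap, while the brightest Bsn probe set differed by -0.05. For Syn2 the 6 probe sets ran from -0.30 to 0.037, with 4 of 6 lower. The annotation used here does not place probe sets along their transcripts.

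**Figure D3:**
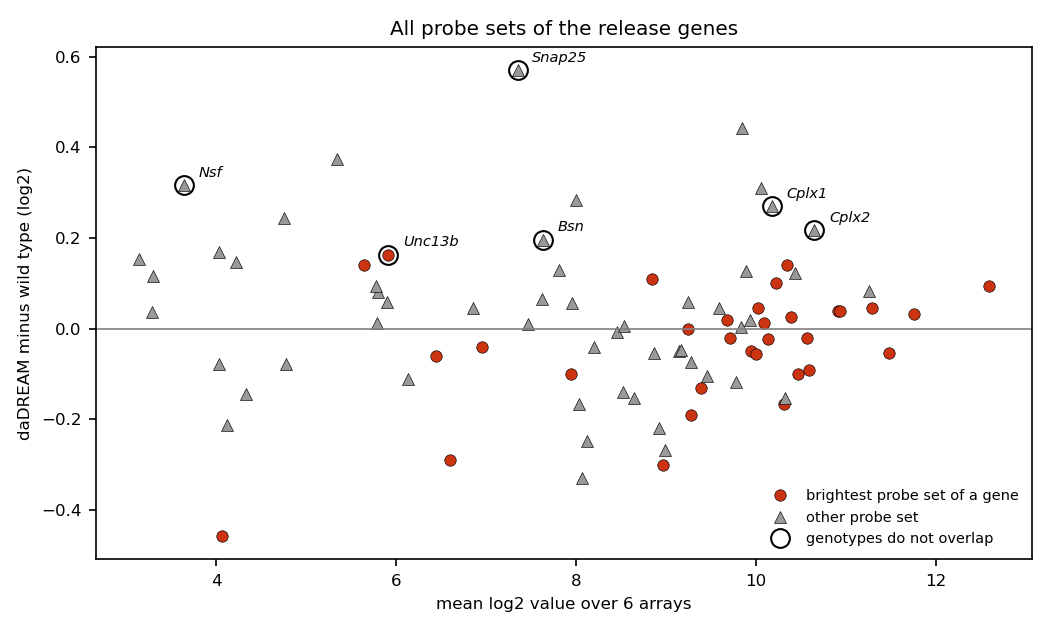
Difference of each of the 85 probe sets (daDREAM minus wild type, log2) against its mean over the 6 arrays. Circles mark the brightest probe set of a gene, triangles the others, and rings the 6 probe sets whose genotypes do not overlap, all of which lie above 0.

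The spread between daDREAM arrays exceeded that between wild-type arrays about as often for the members as for all genes. The standard deviation was larger in daDREAM for 23 of 32 members (71.9%), against 71.4% of all genes, with medians of 0.15 in daDREAM and 0.093 in wild type. Centred on each gene's mean, the median member lay at 0.094, 0.018 and -0.12 in daDREAM replicates 1, 2 and 3, and at 0.018, 0.051 and -0.048 in the wild-type replicates. The lowest value of a member fell on daDREAM replicate 3 in 17 of 32 genes (53.1%, against 27.8% of all genes), and the highest on daDREAM replicate 1 in 12 (37.5%, against 25.8%). Some other lists had the same order: release genes outside the members were highest on daDREAM replicate 1 in 37 of 98 and lowest on daDREAM replicate 3 in 37 of 98. Interneuron markers were highest on the first in 6 of 8 and lowest on the other in 6 of 8, with medians of 0.22 and -0.25, and the medians of astrocyte markers were 0.14 and -0.30. Not all lists did so. From daDREAM replicate 1 to 3 the median rose for markers of unipolar brush cells (-0.15 to -0.03), brainstem (-0.16 to 0.0067) and forebrain (-0.205 to 0.15). Means below 5 were found for 2 of 5, 6 of 9 and 4 of 7 of these markers, and the part of signal level was not tested. Medians of microglial and choroid plexus markers were highest on daDREAM replicate 2. That of Purkinje cell markers was 0.033, 0.035 and 0.0033 in daDREAM replicates 1, 2 and 3, and was highest on wild-type replicate 2, at 0.063. The median of priming and active zone genes lay at 0.23 on daDREAM replicate 1 and at -0.28 on daDREAM replicate 3, wider apart than the wild-type replicates, which lay at 0.022, 0.088 and -0.0067.

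The level of the hybridization controls, RNA of bacterial and phage origin added to each sample before hybridization, was highest on daDREAM replicate 3. The mean of their 18 probe sets was 9.47, 10.14 and 10.47 in daDREAM replicates 1, 2 and 3, and 8.99, 8.99 and 9.48 in the wild-type replicates. Within each genotype the array with the highest control level, replicate 3, had the lowest member median, -0.12 in daDREAM and -0.048 in wild type. Between genotypes, daDREAM replicate 1 and wild-type replicate 3 had nearly the same control level and member medians of 0.094 and -0.048. With that level as a covariate, 26 of 32 members were higher in daDREAM, against 51.7% of all genes, with a median difference of 0.20, against 0.017 over all genes. None passed limma after adjustment, the lowest adjusted p being 0.0898 for Stx1a at -0.67, and 6 members had an unadjusted p under 0.05, against 24.3% of all genes. The control level was higher by a mean of 0.87 in daDREAM, so control level and genotype are partly confounded in that fit. The signal of the Actb control probe sets at the 3′ end exceeded that at the 5′ end by 0.96, 0.58 and 0.63 in daDREAM and by 0.79, 0.79 and 0.78 in wild type. For Gapdh the excess was 0.25, 0.01 and 0.08 in daDREAM and 0.25, 0.29 and 0.12 in wild type. The interquartile range of all values was 3.49, 3.15 and 2.97 in daDREAM and 3.27, 3.38 and 3.10 in wild type. The part of RNA integrity and of this range in the differences was not tested.

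**Figure D4:**
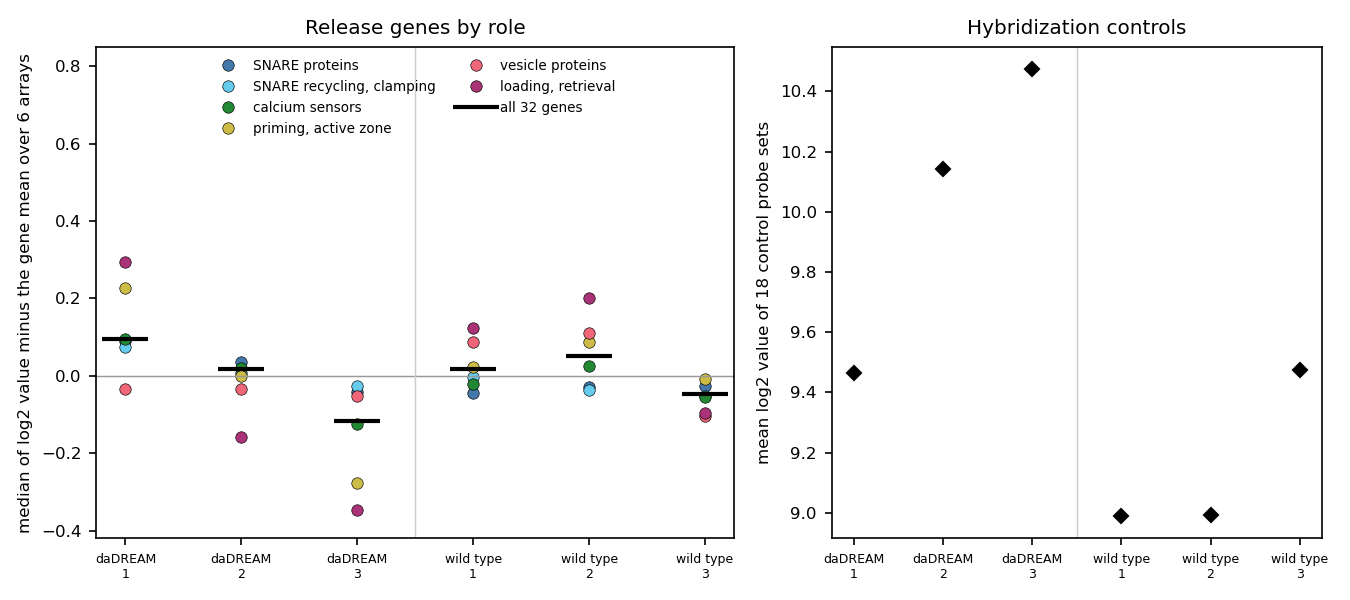
Left, median of the centred log2 values of the release genes of each role on each array, with a bar for all 32 genes. Right, mean log2 level of 18 hybridization control probe sets on the same arrays. The median of all 32 genes is lowest on daDREAM replicate 3, where the controls are highest.

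Leaving out single arrays moved the direction of the group but gave no call. Without daDREAM replicate 3, 23 of 32 members were higher and the median was 0.056. Without daDREAM replicate 1, 10 were higher, the median was -0.043 and the genotypes did not overlap at 8 of 32 members, against 34.0% of all genes. In that setting 5 members had an unadjusted p under 0.05, against 16.5% of all genes: Slc17a6 at -0.57, Unc13c at -0.45, Syn2 at -0.45, Snap91 at -0.36 and Rims2 at -0.34, with limma adjusted p from 0.215 to 0.299. Without daDREAM replicate 3 the same differences were -0.018 for Slc17a6, 0.063 for Unc13c, -0.22 for Syn2, -0.035 for Snap91 and -0.025 for Rims2. That fit had 1 member with an unadjusted p under 0.05, Sv2c at -0.73, against 1.94% of all genes. Without wild-type replicate 3 there were 2, Syn2 at -0.48 and Sv2c at -0.685, against 2.55% of all genes. The other fits with 1 array left out had 0. Fewer arrays make a lack of overlap easier. The count was 3 without daDREAM replicate 2 (9.54% of all genes), 4 without daDREAM replicate 3 (13.5%), 3 without wild-type replicate 1 (8.93%), 2 without wild-type replicate 2 (9.72%) and 7 without wild-type replicate 3 (18.1%).

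The release machinery beyond the 32 members was described through 5 further lists with 98 measured genes. Of these 45 were higher and 53 lower, the median difference was -0.017, and 0 passed limma after adjustment. An unadjusted p under 0.05 was found in 1 of the 98, against 1.42% of all genes. That gene was Synpr, encoding synaptoporin, a relative of synaptophysin. Synpr stood at 7.21, 6.65 and 6.87 in daDREAM and at 7.69, 7.66 and 7.12 in wild type, a difference of -0.58 (interval -1.05 to -0.11, limma adjusted p = 0.998), and daDREAM replicate 1 lay above wild-type replicate 3. In the same list of vesicle membrane proteins and transporters Syngr2 had the largest positive difference, 0.13, and 10 of 21 genes were higher.

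In the list of 11 synaptotagmins outside the members 7 were higher, with Syt5 at 0.28 and Syt9 at -0.17. Among 20 SNARE proteins and partners 8 were higher, with Cplx3, a complexin of retinal ribbon synapses, at 0.34 and Stx3, the syntaxin of those synapses, at -0.31. Active zone and Rab3 proteins had 10 of 20 higher, with the vesicle GTPase Rab27b at 0.35 and Gphn, encoding gephyrin, a scaffold of inhibitory postsynapses and so not a release protein in the sense of the list's name, at -0.25. Vesicle retrieval proteins had 10 of 26 higher, with Ap2a2, an adaptor subunit for clathrin, at 0.46 and the endophilin gene Sh3gl3 at -0.31.

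Markers of the labelled tissue were present. Of 10 granule cell markers 9, and of 9 Purkinje cell markers 9, lay above the upper quartile of all probe sets on all 6 arrays, while 6 of 9 brainstem and 4 of 7 forebrain markers lay below the median on all 6. The neuronal lists that share the release machinery had median differences of -0.022 for granule cells, -0.0067 for Purkinje cells, -0.075 for interneurons and -0.13 for unipolar brush cells. Of the 5 unipolar brush cell markers 4 were lower, and 2 of the 5 lay below the median of all probe sets on all 6 arrays. Choroid plexus markers were higher in daDREAM in 10 of 10 genes, by a median of 0.43, without overlap in 5 (3.55% of all genes were higher without overlap). An unadjusted p below 0.05 was found in 5 of the 10, against 1.42% of all genes, and 0 passed the adjusted limma test. Their median centred level was 0.10 to 0.28 in daDREAM arrays and -0.33 to -0.092 in wild-type arrays. Microglial markers were higher in 8 of 9 genes, against 51.2% of all genes, by a median of 0.17, with 0 past the adjusted test. Of the 9, 3 had means below 5, and 1, C1qc, was higher without overlap (limma unadjusted p = 0.0358). The part of either list in the differences above was not tested. The 2 probe sets of Kcnip3 differed by 0.097 and 0.11 and did not pass. Whether they detect the transgene is not known here, so they do not check the genotype labels.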

How the data were processed

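The table the authors deposited holds log2 values for every probe set, made with RMA and affy per the submitters' processing notes, which name no version. RMA matches probe distributions across arrays, which hides a change shared by most genes. Values ran from 2.46 to 13.8 without detection calls. Genotype and replicate number came from sample titles. From 45101 probe sets the 64 controls were left out; 34945 of the others had 1 symbol, 932 several and 9160 none in the platform annotation. Differences were fitted with limma 3.58.1 in R 4.3.3 (2-sided, 95% intervals, Benjamini-Hochberg over 45037 probe sets at 0.05). The procedure was run on simulated data with added changes far larger than any member difference. That run does not show whether changes of the members' size would be found. The number of arrays limits the precision.

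Members, gene lists and tests were chosen with earlier results of these data known. All members are named; values on every array are given for members picked as core to release and for those without overlap, with an unadjusted p under 0.05 or a difference of at least 0.2. Further lists name the gene with the largest difference in each direction. Stx1a's values on every array and the further probe sets described were chosen after their values were seen. Same-numbered arrays correlated at 0.12, -0.28 and 0.32 in their deviations from group means. Arrays with different numbers correlated at -0.43 to 0.49, so these values neither show nor exclude a pairing by number. Alternatives were a replicate block, a filter on a mean of at least 5, median centring, quantile normalization anew, another prior (trended, robust), leaving out each array, other choices of probe sets, and the control level as a covariate.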

Additional observations from a re-analysis of the deposited data

How the results depend on the processing

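No member passed the adjusted limma test under any of the alternatives run. With the replicate block, which the correlations do not bear out as a pairing, 14 of 32 members were higher, the median was -0.020 and no call changed. A covariate for the control level gave a median of 0.20 for the members and 0.14 for the release genes outside them, with 26 members higher, and turned the sign of Syt1 (0.060), Syt11 (0.23), Stx1a (-0.67), Vamp1 (0.19), Napa (-0.059), Unc13a (0.50), Unc13c (0.61), Rims2 (0.26), Bsn (0.12), Erc2 (0.35), Syn1 (0.078), Syn2 (0.25), Sv2b (0.27), Slc17a6 (0.53), Snap91 (0.38), Slc17a6 to Slc17a7 (0.15), Syn2 to Syn1 (0.17) and Unc13c to Unc13a (0.12). Averaging each gene's probe sets turned Syt7 (-0.10), Vamp1 (0.022), Rims2 (0.051), Bsn (0.076), Pclo (-0.078), Syn3 (0.031), Syp (-0.042) and Unc13c to Unc13a (0.098). Median centring turned Syt7 (-0.013) and Pclo (-0.0067), renewed quantile normalization Vamp1 (0.010), Syn1 (0.0089) and Sv2a (0.017), and leaving out probe sets whose names mark possible matches to several transcripts Stx1a (-0.077). Members without overlap numbered 3 with averaged probe sets (6.13% of all genes), 2 with median centring (4.96%), 2 with renewed quantile normalization (8.30%) and 2 without those probe sets (5.30%). The cause was not tested.

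With 1 array left out, the members higher in daDREAM numbered 10 to 23, those without overlap 2 to 8 (8.93% to 34.0% of all genes), and the medians ran from -0.043 to 0.056 for the members and from -0.071 to 0.013 for the release genes outside them. The sign turned in at least 1 such fit for Syt1 (-0.12 to 0.038), Syt7 (-0.067 to 0.078), Syt11 (-0.18 to 0.070), Stx1a (-0.12 to 0.39), Vamp1 (-0.095 to 0.030), Vamp2 (-0.0067 to 0.12), Nsf (-0.098 to 0.13), Napb (-0.025 to 0.12), Cplx2 (-0.015 to 0.10), Unc13a (-0.27 to 0.057), Unc13c (-0.45 to 0.063), Bsn (-0.18 to 0.047), Pclo (-0.14 to 0.12), Erc2 (-0.18 to 0.14), Syn1 (-0.10 to 0.047), Syp (-0.11 to 0.11), Sv2a (-0.057 to 0.033), Sv2b (-0.16 to 0.088), Syt2 to Syt1 (-0.013 to 0.11), Cplx1 to Cplx2 (-0.072 to 0.048) and Unc13c to Unc13a (-0.20 to 0.12). Without a change of sign, differences moved from -0.57 to -0.018 for Slc17a6, -0.36 to -0.035 for Snap91, -0.34 to -0.025 for Rims2, -0.48 to -0.17 for Syn2, -0.73 to -0.30 for Sv2c and 0 to 0.28 for Slc17a7. The intervals of the report hold for its model and the brightest probe set: the covariate fit put Stx1a, Nsf (0.43), Unc13a, Unc13c, Rims2, Pclo, Syn2, Slc17a6 and Snap91 outside theirs.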
